A study of Mus musculus with 6 samples.

Results

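ATF4 ChIP-seq peaks that lay at the ends of genes were collected from 4 annotated peak lists, those of WT and GCN2 KO MEFs with leucine (WT +Leu and GCN2 KO +Leu) and without it (WT -Leu and GCN2 KO -Leu). A peak was taken when its HOMER annotation began with "TTS", the class for the region around a transcript's 3′ end, or with "3′ UTR", the transcribed stretch after the stop codon. Of 17462 listed peaks, 626 met this rule, 334 of them TTS peaks and 292 of them 3′ UTR peaks. MEFs are fibroblasts grown from mouse embryos, here primary cells of the 129S6/SvEvTac strain, either WT or lacking the kinase GCN2, and kept for 24 h with or without leucine. A single library stood behind each list, prepared by ATF4 antibody precipitation of chromatin pooled from replicate cultures, so no difference between conditions had a replicate check and no test between conditions was made. The 2 lists of a genotype were called against the same input DNA, that of leucine-fed cells, and the input libraries were not analysed here. The sequencing depth of the libraries is unknown, so numbers of peaks cannot be told apart from depth. Intervals given with shares and ratios are 95% Wilson intervals, which cover counting error only.

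ATF4 is a basic leucine zipper transcription factor whose mRNA is translated preferentially when amino acids run short. The kinase GCN2 senses uncharged tRNA and phosphorylates the translation factor eIF2α, and the ATF4 made in response activates genes for amino acid synthesis, amino acid uptake and tRNA charging. ATF4 dimerizes with C/EBP proteins on composite elements whose core reads TGATGCAA, most often near the starts of its target genes. The 3′ end of a gene is where the transcript is cleaved and polyadenylated, and it is often close to the start or the end of the next gene. A peak listed at a gene end can therefore lie inside another gene.

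The composite core TGATGCAA, searched on both strands, was present within 50 bp of the peak center in 12 of the 626 gene-end peaks. These 12 sites are shown because they are the gene-end peaks that hold the sequence ATF4 is known for. Each line gives the gene whose end the annotation names and 30 bases of the mm10 reference, read 5′ to 3′ on the strand of the motif, with the motif in capitals. One site came from the WT +Leu list, at the end of Pgpep1 (a peptidase gene).
Pgpep1: cattgcctggaTGATGCAAtccttacagct
The WT -Leu list held 10 sites, given in order of peak score.
Xpo7: gtgtaaggaccTGATGCAAataaactcgga
Ston1: gcgctgctatcTGATGCAAgacctgctggc
Gadd45a: actccccacgcTGATGCAAggattacagaa
Ptpro: tggggaatgtcTGATGCAAtgtgctccaaa
Mthfd1l: ttgaaatcttgTGATGCAAtgctggagcaa
3010026O09Rik: gctgctctacgTGATGCAActacaagacaa
Rgs8: agtgacagtcgTGATGCAAcagcttccaaa
Fadd: cctccagtagcTGATGCAAaacagtgctgg
Chd2: tctgcaaagccTGATGCAAtgtcagacaca
Hip1: gtgacctctgaTGATGCAAggcaatgcaat
The remaining site came from the GCN2 KO +Leu list, at the end of Ksr2 (a kinase suppressor of Ras).
Ksr2: caaaggggtccTGATGCAAttaaagagaaa
The motif covered the center in 4 of the 12 peaks. Of these peaks 8 were 3′ UTR peaks and 4 were TTS peaks, and the motif read in the direction of the gene in 7 of the 11 whose transcript was found in RefSeq. The flanking bases differed from site to site, and none of the 12 peaks had a partner within 300 bp in another list. Such partners were also few among all gene-end peaks. They were found for 4.97% of the gene-end peaks of WT +Leu and 3.07% of those of WT -Leu. In GCN2 KO +Leu and GCN2 KO -Leu the shares were 1.44% and 2.04%. The share of all peaks with a partner in any other list was not computed. Taken pair by pair, 1.27% to 6.35% of all peaks of a list had a partner, so few partners were not particular to gene ends.

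Gene-end peaks made up a like share of every list. In WT MEFs they were 161 of 4850 peaks with leucine (3.32%, 2.85 to 3.86) and 228 of 6374 without it (3.58%, 3.15 to 4.06). In GCN2 KO MEFs they were 139 of 3566 peaks with leucine (3.90%, 3.31 to 4.58) and 98 of 2672 without it (3.67%, 3.02 to 4.45). The 4 intervals overlapped. In WT MEFs the -Leu list held 1.42 times as many gene-end peaks as the +Leu list (1.16 to 1.73), beside a ratio of 1.31 (1.26 to 1.36) for all other peaks. In GCN2 KO MEFs the ratio was 0.705 (0.545 to 0.912), beside 0.751 (0.714 to 0.790) for all other peaks. In both genotypes the interval of the gene-end ratio held the ratio of the other peaks. With peaks of all scores counted, a change particular to gene ends was therefore not detectable at these counts.

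The TTS and 3′ UTR classes were of similar size. WT +Leu had 90 TTS and 71 3′ UTR peaks, and WT -Leu had 114 of each. GCN2 KO +Leu had 73 TTS and 66 3′ UTR peaks, and GCN2 KO -Leu had 57 and 41. The -Leu over +Leu ratio in WT MEFs was 1.27 (0.962 to 1.67) for TTS peaks and 1.61 (1.20 to 2.16) for 3′ UTR peaks, with overlapping intervals. In GCN2 KO MEFs it was 0.781 (0.553 to 1.10) for TTS peaks and 0.621 (0.422 to 0.915) for 3′ UTR peaks.

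The RefSeq transcript named by the annotation was found for 619 of the 626 peaks, which placed each peak center relative to the transcript's end. TTS peaks lay just past the end. Their median center was 360 bp (+Leu) and 588 bp (-Leu) past it in WT and 531 bp (+Leu) and 440 bp (-Leu) past it in GCN2 KO MEFs. Where 4 values follow each other from here on, they are for WT with and without leucine and then for GCN2 KO with and without leucine. Centers from 100 bp before to 1000 bp past the end made up 81 of 88, 109 of 112, 69 of 71 and 53 of 57 TTS peaks, a range that the TTS class itself largely sets. The 3′ UTR peaks had their median center 781, 666, 723 and 681 bp past the stop codon, and 926, 1104, 923 and 1029 bp before the transcript's end. The RefSeq annotation used here is later than that of the peak lists, and a few transcripts now end elsewhere.

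**Figure D1:**
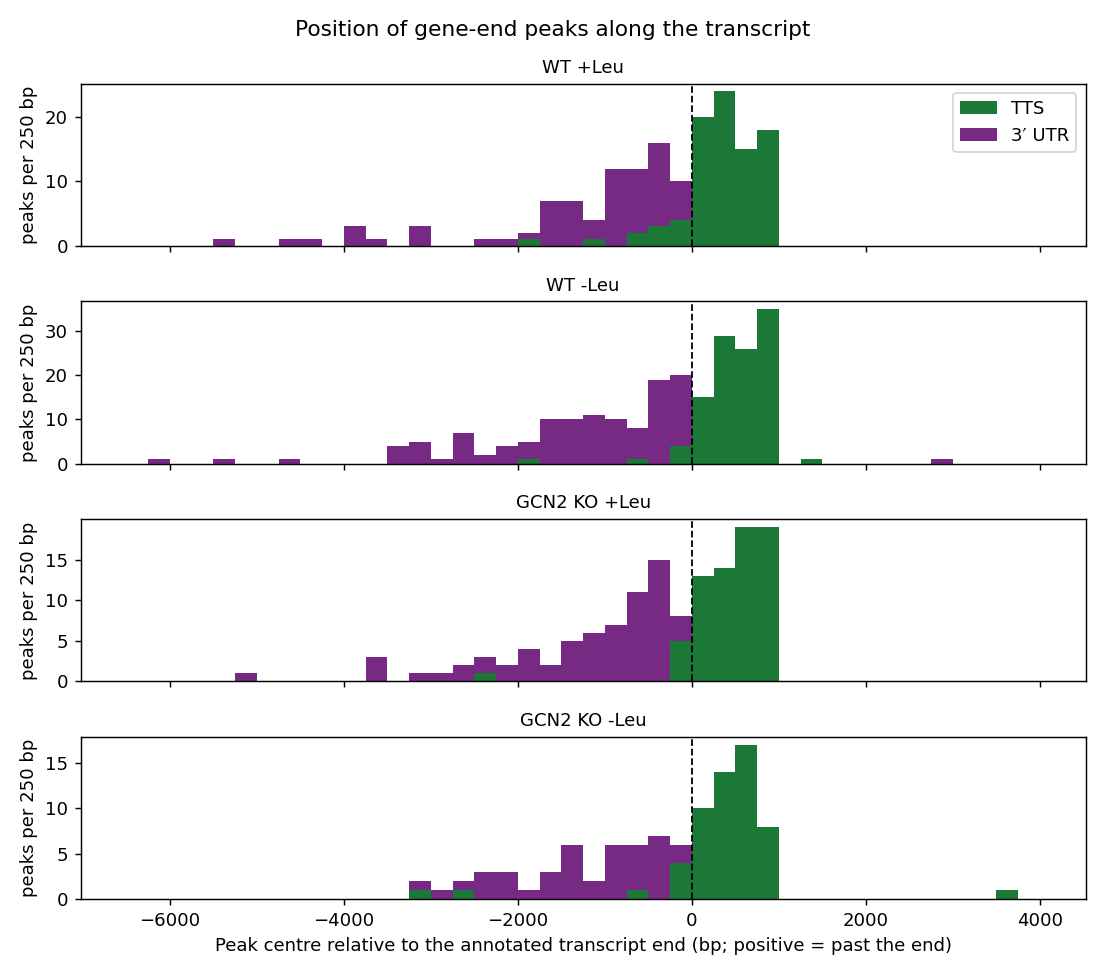
Number of gene-end peaks per 250 bp (vertical axis) against the distance of the peak center from the annotated transcript end in bp (horizontal axis, positive values past the end), 1 panel per list, TTS peaks in green and 3′ UTR peaks in purple, stacked. In all 4 lists TTS peaks fill the first 1000 bp past the end, and 3′ UTR peaks are spread over several kb before it.

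The composite motif was counted in each list. TGATGCAA was found in 10 of 228 WT -Leu gene-end peaks (4.39%, 2.40 to 7.88) and in 1 of 161 from WT +Leu (0.621%, 0.110 to 3.43). In GCN2 KO MEFs it was found in 1 of 139 with leucine (0.719%, 0.127 to 3.96) and in 0 of 98 without it (0 to 3.77). The WT -Leu interval overlapped those of the other 3 lists. Over all peaks of each list on assembled chromosomes the 4 shares were 2.71%, 6.95%, 1.07% and 1.09%. The share at gene ends was below that of the other peaks of the same list in each of the 4 lists, with overlapping intervals. The other peaks held the motif in 2.78% (2.35 to 3.29) and 7.04% (6.43 to 7.71) of the WT lists and in 1.09% (0.788 to 1.49) and 1.13% (0.790 to 1.62) of the GCN2 KO lists. Of windows of the same length 1 kb to either side of the gene-end peaks, 0 of 322, 0 of 456, 0 of 278 and 1 of 196 held it. In WT -Leu the lower bound at the peaks (2.40%) was above the upper bound for 0 of 456 windows (0.835%). The other 3 lists had too few motif peaks for such a separation.

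**Figure D2:**
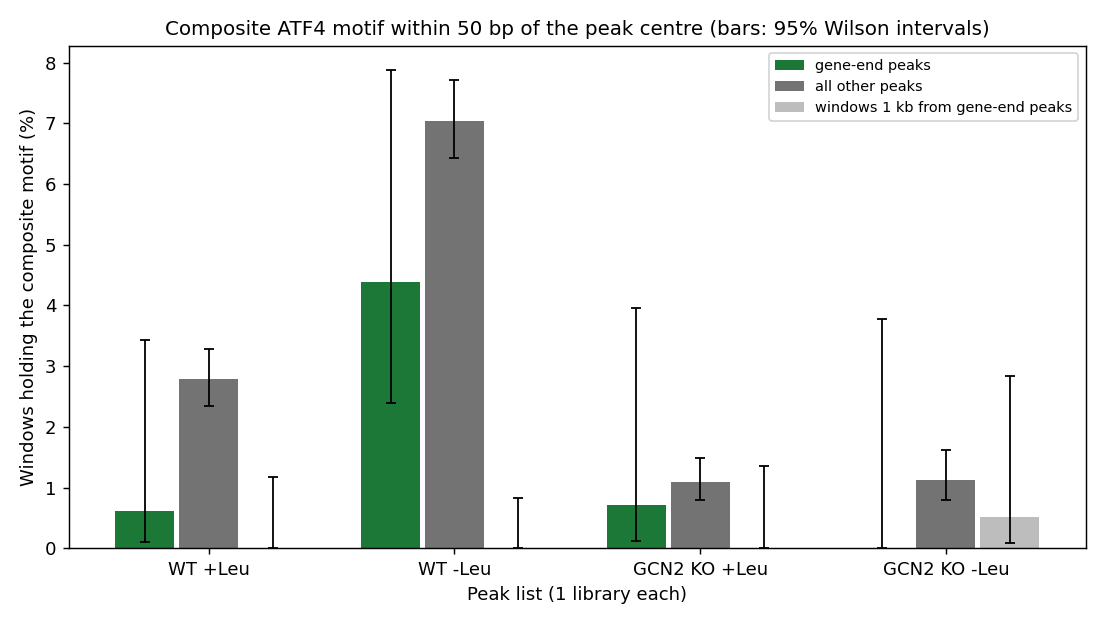
Share of windows with TGATGCAA within 50 bp of the center (vertical axis, %) in each list (horizontal axis) for gene-end peaks (green), all other peaks (dark grey) and windows 1 kb from the gene-end peaks (light grey), with 95% Wilson intervals as error bars. The gene-end share is highest in WT -Leu, at 4.39%, and a missing bar is a share of 0.

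Related sequences were counted in the same way. With any base at position 6 of the motif (TGATGNAA, which includes TGATGCAA) the counts were 3, 16, 3 and 1 gene-end peaks (1.86%, 7.02%, 2.16% and 1.02%), beside 4.34%, 11.1%, 2.23% and 2.30% of the other peaks. The windows 1 kb from the gene-end peaks held TGATGNAA in 0.311%, 0%, 1.80% and 2.04%. Only in WT -Leu were the intervals of peaks (4.37 to 11.1) and windows (0 to 0.835) apart. Allowing 1 mismatch anywhere in the 8 bases gave 13 (8.07%), 26 (11.4%), 9 (6.47%) and 6 (6.12%) gene-end peaks, beside 10.5%, 19.2%, 8.01% and 7.23% of the other peaks. In WT -Leu the intervals of these 2 shares (7.90 to 16.2 and 18.2 to 20.2) did not overlap. The windows 1 kb away were not searched with a mismatch allowed. The AP-1 element, TGACTCA or TGAGTCA, to which Fos and Jun proteins bind, was found in 2, 5, 3 and 3 gene-end peaks (1.24%, 2.19%, 2.16% and 3.06%), beside 2.16%, 3.41%, 1.67% and 1.91% of the other peaks, with overlapping intervals in each list. In the windows 1 kb away it was found in 0.621%, 3.07%, 0.719% and 1.53%, again with overlapping intervals. The cAMP response element TGACGTCA was found in 0, 1, 0 and 0 gene-end peaks, beside 0.0641%, 0.130%, 0.0587% and 0.0781% of the other peaks.

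Scores were used to describe peaks within a list. The Peak Score is the authors' whole number, whose scale is not given in the sources used here and which is not normalized between libraries. In WT MEFs its median at gene ends was 29 with leucine (range 13 to 63) and 30 without it (13 to 1129). The GCN2 KO medians were 29 (14 to 60) and 27 (16 to 59). The medians of all other peaks were 30, 30, 29 and 30. Scores fell on few values. In WT -Leu, 92 of the 228 gene-end peaks (40.4%) had one of the 3 scores 23, 30 and 38, and in WT +Leu 62 of 161 (38.5%) had 24, 30 or 37.

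Scores of at least 50 were found at 5 of 161 and 42 of 228 gene-end peaks of the WT lists and at 5 of 139 and 2 of 98 of the GCN2 KO lists. The shares were 3.11%, 18.4%, 3.60% and 2.04%, against 7.69%, 20.0%, 4.88% and 4.90% of all peaks of the same lists. The 14 gene-end peaks with scores of at least 100 were all from WT -Leu, where they made up 6.14%, beside 9.96% of the other peaks. Such scores were found in 1.92% of the other WT +Leu peaks and in 0.934% and 0.505% of the other peaks of the GCN2 KO lists. For WT +Leu the share at 50 or more was lower at gene ends (1.33 to 7.06) than at all other peaks (7.85%, 7.11 to 8.65), and in the remaining lists the intervals overlapped.

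**Figure D3:**
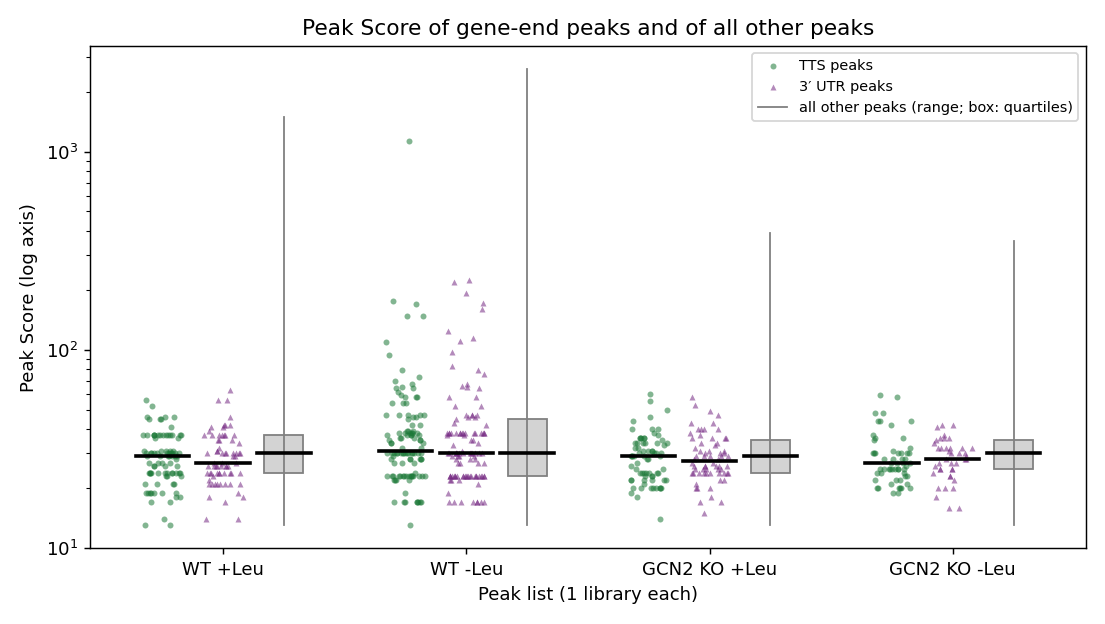
Peak Score (vertical log axis) of each TTS peak (green circles) and 3′ UTR peak (purple triangles) in the 4 lists, with all other peaks of the list as a grey range line and quartile box, and black lines at the medians. Medians lie near 30 throughout, and scores of 100 or more at gene ends occur in WT -Leu alone.

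Within WT -Leu the motif was more frequent at high scores. It was present in 9 of the 42 WT -Leu gene-end peaks scored 50 or more (21.4%, 11.7 to 35.9) and in 1 of the 186 scored lower (0.538%, 0.0950 to 2.98). The other peaks of WT -Leu showed 28.5% (26 to 31.1) at 50 or more and 1.69% (1.37 to 2.09) below. At equal score class the gene-end intervals therefore overlapped those of the other peaks. Of the 14 gene-end peaks at 100 or more, 4 held TGATGCAA, 6 held TGATGNAA and 7 had an 8-base site with 1 mismatch or fewer.

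The highest gene-end score of all was at the convergent ends of Tulp2 and Ppp1r15a. Ppp1r15a encodes GADD34, the phosphatase subunit that reverses eIF2α phosphorylation, and Tulp2 is a tubby-like gene. The peak, at chr7:45523352-45523652 of mm10, had a score of 1129 in WT -Leu, rank 18 of the 6374 peaks of that list, and no peak lay within 300 bp of it in the other 3 lists. The annotation calls it a TTS peak of Tulp2, and its center was 575 bp past the end of that transcript. In RefSeq the same position is inside an intron of Ppp1r15a, which runs on the opposite strand, 2766 bp downstream of its TSS. A separate promoter peak of Ppp1r15a in the same list, 21 bp from the TSS, had a score of 76. The window held no TGATGNAA, and its closest 8-base site differed from TGATGCAA by the substitutions G2C and A3T, counted from 1 at the 5′ end of the motif with the motif's base first. The site is shown with the differing 8 bases in capitals.
Tulp2: tgtgttcactcTCTTGCAAtctcctgtaag

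Next in score were Xpo7 and Kdm3b. Xpo7, a nuclear transport receptor gene, had a score of 225 at chr14:70658989-70659289 and held TGATGCAA. The lists call it a 3′ UTR peak, but the RefSeq transcript used here ends 2987 bp before the peak center, and the nearest TSS was that of Npm2, 6055 bp away. The 3′ UTR peak of the histone demethylase gene Kdm3b had a score of 221, lay 1349 bp upstream of the TSS of Reep2 and had no site within 2 mismatches of the motif. Ston1, an endocytic adaptor gene, had a 3′ UTR peak of score 194 at chr17:88645345-88645645, 206 bp past the stop codon, with TGATGCAA. All 3 scores were from WT -Leu, and none of these sites had a peak in another list. Of all WT -Leu gene-end peaks, 3.07% had one.

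Gadd45a, a growth arrest and DNA damage response gene of the stress response list, had its only gene-end peak in WT -Leu. The score was 172 at chr6:67035419-67035719, in exon 4 of 4, 90 bp past the stop codon, and TGATGCAA covered the center. HOMER assigned this peak to E230016M11Rik, whose TSS was 1030 bp away, so a list of target genes made from the nearest TSS would not name Gadd45a for it. Ptpro, a receptor-type tyrosine phosphatase gene, had a TTS peak of score 170 at chr6:137465286-137465586 with the motif, assigned to Eps8 at a distance of 54459 bp. The remaining 2 of the 8 highest scores were a TTS peak of the noncoding transcript 4930467K11Rik (177) and a 3′ UTR peak of the phosphoinositide kinase gene Pip4k2b (160), neither of which held TGATGNAA.

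Mthfd1l and Sqstm1 each had a second peak near the TSS beside the gene-end peak. Mthfd1l encodes the mitochondrial enzyme that makes formate from one-carbon units. Its 3′ UTR peak in WT -Leu, at chr10:4155557-4155857, had a score of 83 and held TGATGCAA, and it was assigned to Akap12, 110622 bp away. An intronic peak near its TSS also held TGATGCAA, with scores of 58 in WT +Leu (668 bp from the TSS) and 144 in WT -Leu (680 bp). The peak at the end of 3010026O09Rik, at chr11:50200604-50200904, had a score of 79 in WT -Leu and lay in RefSeq within the 3′ UTR of Sqstm1, the autophagy receptor gene on the opposite strand, 10066 bp from its TSS. A peak 1305 bp upstream of the Sqstm1 TSS had a score of 545 in WT -Leu and did not hold the motif.

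The other motif peaks scored 50 or more were at Rgs8, a regulator of G protein signaling (66, chr1:153696512-153696812), Fadd, the death receptor adaptor (61, chr7:144577852-144578152), and Chd2, a chromatin remodeler (58, chr7:73426892-73427192), each in WT -Leu alone. The 3 motif peaks below 50 were those of Pgpep1 (30, WT +Leu), Ksr2 (31, GCN2 KO +Leu) and Hip1 (23, WT -Leu), which were named after their values were seen. Chchd10 (149) and Ppt1 (64), also named after their values were seen, had WT -Leu gene-end peaks with TGATGNAA but not TGATGCAA. They are shown because they carry a close form of the motif, with the substitution C6T.
Chchd10: tcccttcttgcTGATGTAActtcttagtaa
Ppt1: gtgcaagattcTGATGTAAgtcgagaccta

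The highest gene-end scores of the other lists were lower and held no TGATGNAA. In WT +Leu they were at Zfp651 (63), Adam12 (56), Kctd1 (56), Gpsm1 (56) and Lrrc59 (52). In GCN2 KO +Leu they were at Qrsl1 (60), Csmd2 (58), Miga2 (55), Hlcs (53) and Bst2 (50), the last an interferon-induced membrane protein gene that tethers virions. In GCN2 KO -Leu they were at Tbc1d10a (59), Flt3l (58), Nrxn2 (48), Rab3il1 (48) and Surf4 (44). None of these 15 peaks had a partner within 300 bp in another list. Over all gene-end peaks of these lists the shares with a partner were 4.97%, 1.44% and 2.04%. Taken pair by pair, 1.57% to 6.35% of all peaks of these lists had a partner. The lack of partners at these 15 peaks therefore does not set them apart.

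Few gene-end peaks recurred. Of the WT +Leu gene-end peaks, 7 of 161 (4.35%, 2.12 to 8.70) had a WT -Leu partner, a peak centered within 300 bp, against 6.35% of all WT +Leu peaks. Of the GCN2 KO +Leu gene-end peaks, 1 of 139 (0.719%, 0.127 to 3.96) had a GCN2 KO -Leu partner, against 2.75% of all GCN2 KO +Leu peaks. Between genotypes, 1 of 228 WT -Leu gene-end peaks (0.439%, 0.0775 to 2.44) had a GCN2 KO -Leu partner, against 1.27% of all, and 1 of 161 WT +Leu gene-end peaks (0.621%, 0.110 to 3.43) had a GCN2 KO +Leu partner, against 1.92% of all. The share at gene ends was below that of all peaks in these 4 comparisons, and in each the gene-end interval held the share of all peaks. The remaining pairs of lists were not among the planned comparisons. Of the 161 WT +Leu gene-end peaks, 1 (0.621%, 0.110 to 3.43) had a GCN2 KO -Leu partner, against 1.57% of all. Between WT -Leu and GCN2 KO +Leu no gene-end peak was common. Of the 228 WT peaks, 0 had a partner (0 to 1.66), against 1.73% (1.43 to 2.08) of all. Of the 139 GCN2 KO peaks 0 had one (0 to 2.69), against 3.03% (2.51 to 3.64) of all. In both directions the intervals overlapped, but unlike in the 4 planned comparisons the gene-end interval did not hold the share of all peaks. The lists of a genotype share their input DNA, so recurrence within a genotype is not between independent controls.

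The recurrent sites had scores from 14 to 79, on both sides of the gene-end medians of the lists (27 to 30). The 3′ UTR of 1600014C10Rik had the site found in most lists, with scores of 79 in WT -Leu, 35 in WT +Leu and 32 in GCN2 KO -Leu, and no peak in GCN2 KO +Leu. A TTS peak of the same gene had scores of 31 in WT +Leu and 67 in WT -Leu. Peaks were frequent along this locus. From 20000 bp before to 20000 bp after the gene-end peaks there were 6 peaks (scores 21 to 55) in WT +Leu and 8 (21 to 79) in WT -Leu, beside 1 in each GCN2 KO list (55 with leucine and 32 without it), and none held TGATGCAA.

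Bhlha15, which encodes the transcription factor MIST1, had a 3′ UTR site with scores of 37 in WT +Leu and 38 in WT -Leu. The other sites common to the WT lists had scores, with leucine and then without, of 19 and 29 at Rph3al, 21 and 28 at Zfp641, 24 and 23 at Ranbp10, and 19 and 17 at Zp3. The site shared by the +Leu lists was at A530016L24Rik (24 in WT and 25 in GCN2 KO), and the site shared by the GCN2 KO lists was at Brsk2, a neuronal kinase gene (14 with leucine and 30 without it). None of the recurrent sites held TGATGCAA.

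**Figure D4:**
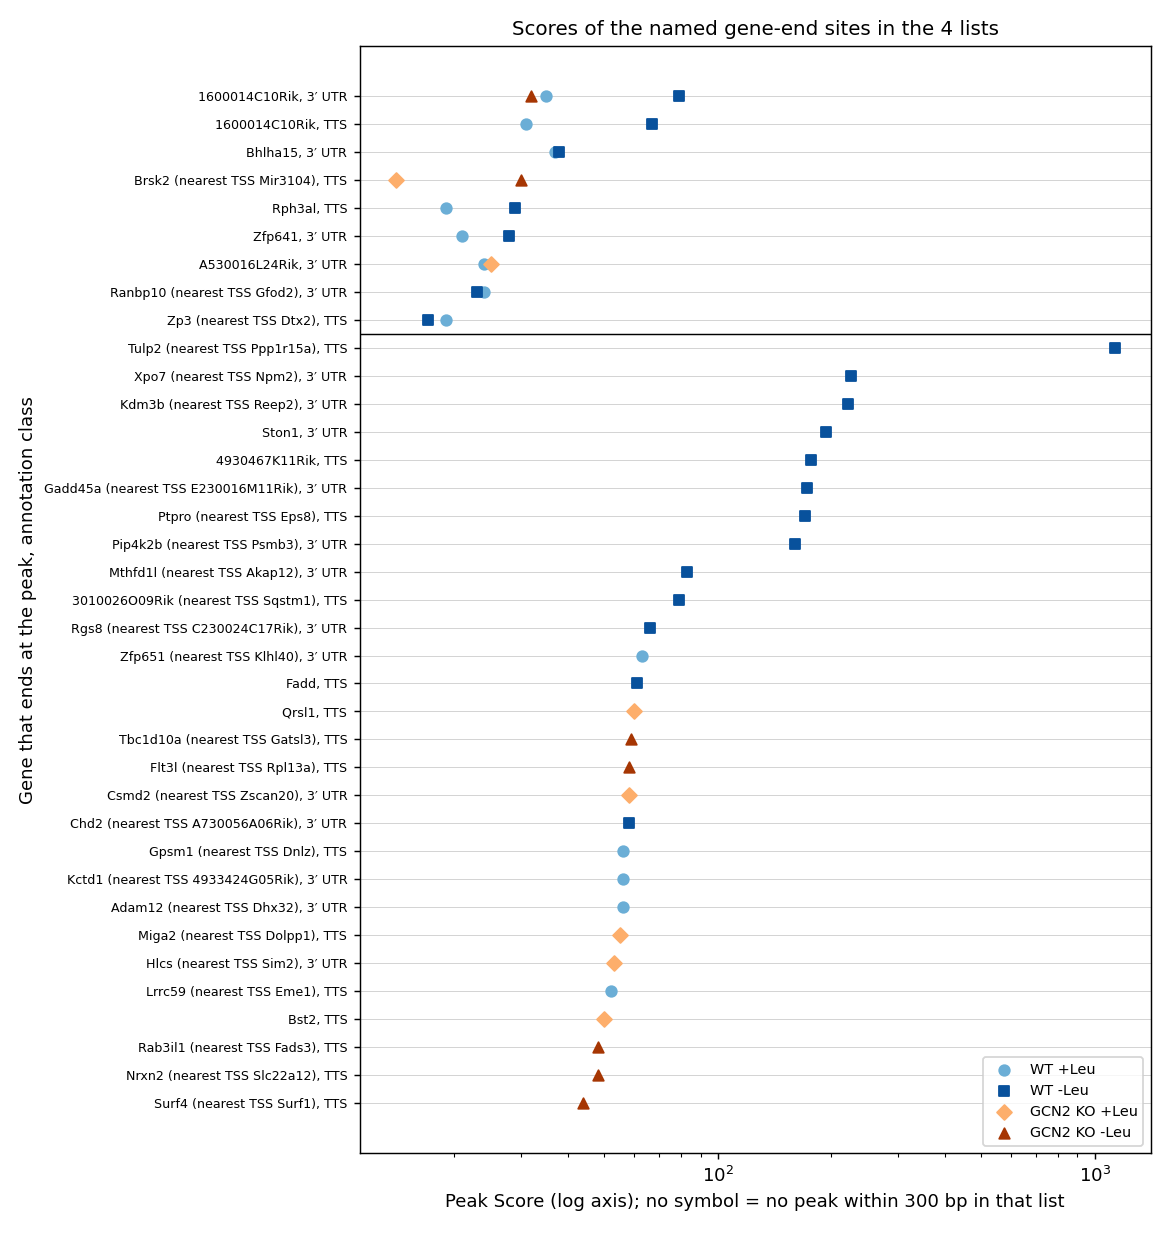
Peak Score (horizontal log axis) in the 4 lists (color and symbol) for gene-end sites named for their rank, motif or recurrence, 1 row per site, labelled with the gene that ends there. Rows above the line have a peak within 300 bp in more than 1 list, and the highest rows below it, from Tulp2 at 1129 to Rgs8 at 66, are single WT -Leu peaks.

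Genes were compared by name as well as by site. The ends of 590 different genes carried a peak, and 21 of them did so in more than 1 list, 1600014C10Rik in 3 lists and the other 20 in a pair of lists. At 8 of the 21 the peaks were at a common site, and at 13 they lay more than 300 bp apart. The WT lists shared 9 genes, 5.73% of the WT +Leu and 4.09% of the WT -Leu genes, and the GCN2 KO lists shared 1, 0.725% and 1.03%. Across genotypes, WT +Leu shared 3 genes with GCN2 KO +Leu (1.91% and 2.17%) and 5 with GCN2 KO -Leu (3.18% and 5.15%), and WT -Leu shared 2 (0.909% and 1.45%) and 3 (1.36% and 3.09%). The overlap of gene names over all peaks was not computed, so these shares cannot be called low or high for gene ends. By site, 6.35% of all WT +Leu peaks had a WT -Leu partner. For all GCN2 KO +Leu peaks and GCN2 KO -Leu partners the share was 2.75%. Among the 13, named after their values were seen, were the clock genes Cry2 (37 in WT +Leu and 38 in WT -Leu, 1628 bp apart) and Per2 (37 in WT -Leu and 20 in GCN2 KO +Leu, 1931 bp apart). More than 1 gene-end peak in the same list was found at 3, 7, 1 and 1 genes.

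The gene name in the lists is that of the nearest TSS, and for most gene-end peaks it was not the gene that ends there. The names matched for 68 of 161 (42.2%, 34.9 to 50.0) and 104 of 228 (45.6%, 39.3 to 52.1) peaks of the WT lists and for 55 of 139 (39.6%, 31.8 to 47.9) and 41 of 98 (41.8%, 32.6 to 51.7) peaks of the GCN2 KO lists. Over the 4 lists, 268 peaks carried the name of the gene that ends and 358 another. A second gene on the opposite strand ended within 1 kb of 13, 25, 13 and 9 peaks.

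Gene-end peaks were often near a start site nonetheless. Within 5 kb of a TSS, the limit the study used for target genes, lay 51 (31.7%, 25 to 39.2) and 55 (24.1%, 19.0 to 30.1) gene-end peaks of the WT lists and 33 (23.7%, 17.4 to 31.5) and 26 (26.5%, 18.8 to 36.0) of the GCN2 KO lists. The other peaks did so in 16.2%, 18.2%, 16.3% and 15.5%, and their upper bounds were 17.3, 19.2, 17.6 and 17.0. The intervals were apart in WT +Leu and in GCN2 KO -Leu and overlapped in WT -Leu and in GCN2 KO +Leu. For 28, 30, 19 and 14 of these peaks the TSS belonged to a gene other than the one that ends. Some genes enter a target list through a gene-end peak alone. These were 44 of 776 (5.67%), 50 of 1111 (4.50%), 33 of 577 (5.72%) and 24 of 413 (5.81%) target genes. Target genes were counted here as the different gene names with a peak within 5 kb. A total can differ from the study's own, and the reason for any difference was not tested.

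Genes of amino acid and stress pathways were looked up among the gene-end peaks. Over 204 genes in 7 lists, gene-end peaks were assigned to, or lay at the end of, 2, 8, 4 and 3 genes. The share over all genes was not computed, so these counts cannot be called few or many. By a different rule, 55, 64, 30 and 16 of the genes had some peak, of any class, within 5 kb of their TSS. Both counts can include the same gene-end peak. Of the 36 genes of the integrated stress response and ATF4 pathway, WT -Leu had Ppp1r15a, Gadd45a and Bhlha15, the +Leu lists had Bhlha15 alone, in GCN2 KO through a peak at the end of the neighboring gene Lmtk2 (20), and GCN2 KO -Leu had none. None of the 25 ER chaperone and unfolded protein response genes had one in any list.

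Aminoacyl-tRNA synthetase genes, which charge tRNAs with amino acids, had 1 gene-end peak in 3 of the lists, out of 38 genes. Pars2 was assigned a peak at the end of Ttc4 in WT +Leu (30). Sars had a 3′ UTR peak in GCN2 KO +Leu (18), beside an intronic peak about 1 kb from its TSS with scores of 211 and 559 in WT and 123 and 62 in GCN2 KO MEFs, with and without leucine. Vars had a TTS peak in GCN2 KO -Leu (25) that was assigned to Vwa7, whose TSS was 614 bp away. The center of that peak lay in a coding exon of Vwa7, 864 bp past the end of Vars. An intronic peak of Vars had scores of 30 in WT +Leu and 126 in WT -Leu.

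Psat1, an enzyme of serine synthesis, had a TTS peak in WT -Leu (39, 286 bp past the end). Its promoter peak had scores of 398 and 1050 in WT and 161 and 66 in GCN2 KO MEFs, with and without leucine, so at this gene the end was marked weakly beside the start. With Mthfd1l it was 1 of 2 among the 25 amino acid synthesis and one-carbon genes. Of 29 amino acid transporter genes, the glutamate transporter Slc1a2 (73) and the lysosomal arginine transporter Slc38a9 (23) had gene-end peaks in WT -Leu, and the glutamate transporter Slc1a3 (41) in GCN2 KO -Leu. Of 22 autophagy and lysosome genes, Sqstm1 was marked in WT -Leu and Tfeb, the lysosomal transcription factor, in GCN2 KO +Leu (20). Of 29 mTORC1 and amino acid sensing genes, Tsc2 was assigned a peak at the end of Pkd1 in GCN2 KO +Leu (22), and Gatsl3, an arginine sensor, a peak at the end of Tbc1d10a in GCN2 KO -Leu (59).

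Base composition was compared with that of the other peaks. Median GC content was 53.2%, 53.0%, 53.2% and 53.7%, beside 51.5%, 52.2%, 52.5% and 53.2% of the other peaks. By 95% order-statistic intervals of the median, gene-end peaks were apart from the other peaks in WT +Leu (52.2 to 53.8 against 51.5 to 51.8), met them at 52.2 in WT -Leu and overlapped them in both GCN2 KO lists. The 3′ UTR peaks had higher medians (53.8%, 53.2%, 53.8% and 54.5%) than the TTS peaks (52.3%, 52.8%, 52.5% and 53.2%) in each of the 4 lists, with overlapping intervals of the medians. Median CpG content was 1.67%, 1.5%, 1.33% and 1.33%, beside 1.33% for the other peaks of each list. Windows with more than 50% of their bases soft-masked as repeats in the reference were scarcer at gene ends. They made up 2 of 161 (1.24%, 0.341 to 4.42), 2 of 228 (0.877%, 0.241 to 3.14), 2 of 139 (1.44%, 0.395 to 5.09) and 3 of 98 (3.06%, 1.05 to 8.62), against 7.05%, 5.77%, 5.51% and 6.25% of the other peaks, and the intervals were apart in the WT lists and overlapped in the GCN2 KO lists.

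**Figure D5:**
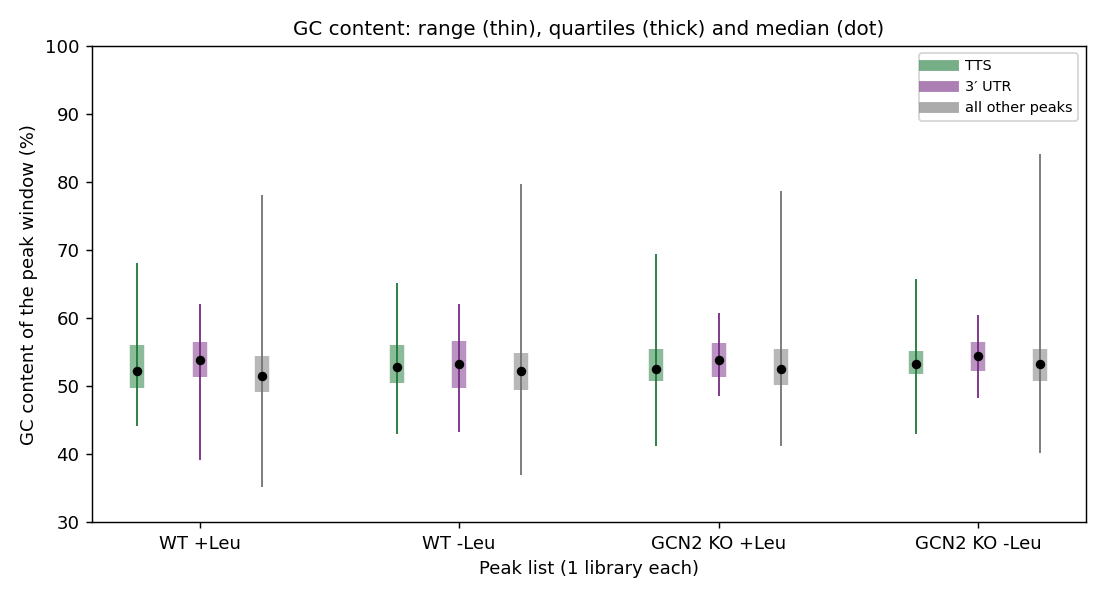
GC content of the peak windows (vertical axis, %) in the 4 lists (horizontal axis) for TTS peaks (green), 3′ UTR peaks (purple) and all other peaks (grey), with thin lines for the range, thick lines for the quartiles and dots for the medians. All medians lie between 51.5% and 54.5%.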

How the data were processed

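The deposited files were the authors' 4 annotated peak lists. Per the authors' methods, reads were trimmed with fastx and aligned to mm10 with BWA 0.7.12, peaks were called with MACS2 2.1.0 on each library, and windows of 150 bp to either side of the summits were annotated with HOMER 4.7. The authors deposited a score per peak, its distance to the nearest TSS, and CpG and GC contents, each a fraction printed here as percent. The Detailed Annotation column of each gene-end peak equalled its Annotation. GC content of the 626 members equalled that of the GRCm38 reference, from which sequence was read. Peaks off assembled chromosomes (54, none a member) were left out of motif shares.

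Positions and gene ends came from RefSeq of the same assembly, with 405 end-gene symbols from the lists, 219 from RefSeq and 2 without one. Peaks were common when centers were 300 bp or less apart. The members and gene lists were chosen with earlier results of these data known. Genes were named when among the 8 highest scores of WT -Leu or the 5 highest of another list, when they held TGATGCAA and had a score of 50 or more, when recurrent, or when in a gene list. Python 3.11.15, pandas 2.3.3, scipy 1.17.1, pysam 0.24.0 and samtools 1.23.1 were used, and motif and overlap steps were tested on simulated data. Some items are not reported here.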

Additional observations from a re-analysis of the deposited data

Results flagged for a closer look

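Several values moved in opposite directions without leucine in the 2 genotypes. With 1 library per condition the difference between genotypes was not tested, and sequencing depth cannot be told apart from the condition. The number of gene-end peaks without leucine was 1.42 times that with leucine in WT MEFs and 0.705 times in GCN2 KO MEFs. With the same number of strongest peaks from each list the ratios were 1.22 (0.911 to 1.63) and 0.990 (0.749 to 1.31), and both intervals then held 1. Equal list sizes set the ratio of all peaks to 1 by construction, so these ratios compare shares at gene ends and not numbers. The share of peaks at gene ends was higher without leucine by 0.26 percentage points in WT and changed by -0.23 in GCN2 KO, both within the counting intervals. The share of gene-end peaks with TGATGCAA differed by 3.77 percentage points in WT and by -0.719 in GCN2 KO, where it rests on a single motif peak. The median score differed by 1 in WT and by -2 in GCN2 KO, and the median GC content by -0.2 and 0.5 percentage points.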

How the results depend on the processing

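For 18 results, 77 alternative values were computed, of which 52 stayed within the counting interval of the reported value (or within 1.5 times, for counts) and 25 did not; the cause was not tested. In WT MEFs the -Leu over +Leu ratio became 1.90 at a score of 30 or more and 8.40 (3.43 to 20.6) at 50 or more. The latter threshold was chosen after seeing the data. There all other peaks had a ratio of 3.35 (2.98 to 3.76), which the gene-end interval did not hold, though the 2 intervals overlapped. In GCN2 KO MEFs the gene-end ratio became 0.990 (0.749 to 1.31) with the 2672 strongest peaks of each list and 0.400 at 50 or more. The share of peaks at gene ends fell by construction when counted by class, to 1.86%, 1.79%, 2.05% and 2.13% for TTS peaks and 1.46%, 1.79%, 1.85% and 1.53% for 3′ UTR peaks in the WT lists with and without leucine and the GCN2 KO lists with and without it, and was 2.87% in GCN2 KO -Leu at a score of 30 or more. The TGATGCAA share was 0 for TTS peaks in WT +Leu and in GCN2 KO +Leu, and in WT -Leu it was 8.91% among the strongest peaks and 21.4% at 50 or more. Gene-end peaks with a partner numbered 3 for WT +Leu and WT -Leu when both scored 30 or more. For GCN2 KO +Leu and GCN2 KO -Leu they numbered 2 at 1000 bp and 0 at that score. For WT -Leu and GCN2 KO -Leu they numbered 0 at 100 bp and 3 at 1000 bp, and for WT +Leu and GCN2 KO +Leu 0 at 100 bp, 3 at 1000 bp and 0 at that score. No paired analysis was possible because each condition had 1 library and no result came from a test. The unknown depth limits every comparison of numbers between lists, and the few motif peaks limit the shares.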

Other observations

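Chromosome 11 was singled out after the values were seen. It held 39 of the 228 WT -Leu gene-end peaks (17.1%, 95% Wilson interval 12.8 to 22.5), against 7.37% (6.74 to 8.05) of the other WT -Leu peaks. In WT +Leu it held 14 of 161 gene-end peaks (8.70%, 5.25 to 14.1), in GCN2 KO +Leu 11 of 139 (7.91%, 4.48 to 13.6) and in GCN2 KO -Leu 11 of 98 (11.2%, 6.38 to 19.0), against 6.97%, 8.43% and 7.85% of the other peaks. The WT -Leu and WT +Leu intervals at gene ends overlapped.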
